A study of Rattus norvegicus with 16 samples.

Results

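GABA-A receptor subunit genes were followed in the prefrontal cortex (PFC) of footshock (FS)-stressed rats and controls. The 7 genes examined were Gabra2, Gabra3, Gabra4, Gabra5, Gabrb1, Gabrb2 and Gabrd, each found through probe sets whose only gene symbol in the platform annotation was that name. They are 7 of the 17245 genes with such a probe set. Where a gene had more than 1 probe set, as Gabra5 did, the one with the highest mean over the 16 arrays stood for it. Adult male Sprague-Dawley rats were used in both groups. The 8 FS rats went through a 40 min session of inescapable shocks at 0.8 mA, with 20 min of actual shock, and were taken immediately afterwards (0 h), whereas the 8 control rats remained in their home cages. Shock and the handling that went with the session are thus not told apart by this design. Rats were housed in pairs, and the labels do not say which rats shared a cage.

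GABA-A receptors are chloride channels built of 5 subunits, opened by GABA, the main inhibitory transmitter of the cortex. Most hold a pair of alpha subunits and a pair of beta subunits, between which GABA binds, together with a gamma or a delta subunit. The alpha subunit sets the response to benzodiazepines and much of the position of the receptor, and receptors outside synapses, which often hold alpha4 with delta or alpha5, carry a slow tonic inhibition.

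The values were log2 expression on Affymetrix Rat Gene 1.0 ST arrays, on which a difference of 1 is a doubling. All 7 genes passed the filter on low values (mean above 4), with means over the 16 arrays between 5.88 (Gabrd) and 9.74 (Gabra3). Values of different probe sets are not levels on 1 common scale, so genes are compared only by their differences between arrays. In bulk tissue, fewer cells of a type and less RNA per cell cannot be told apart. The tissue label was checked against markers. Slc17a7, the vesicular glutamate transporter of cortical excitatory neurons, ranged between 9.48 and 10.95 in FS arrays and between 9.75 and 11.01 in controls. Markers of striatal neurons also varied widely: Drd2 ranged between 4.67 and 8.34 in FS arrays and between 4.63 and 8.68 in controls. By a score of 11 cortical glutamatergic marker genes, 3 arrays stood apart (FS replicates 3 and 8 and control replicate 6, at -0.77, -0.86 and -0.73), while the other 13 lay between -0.25 and 0.44. Most results on the subunit genes are therefore given also in the other 13 arrays, by value or by range. Exceptions include the group difference of Gabra3 and the spreads over arrays, given for all 16 only. These 13 are not evened out for striatal markers. By a score of 21 such genes, FS replicates 2, 4 and 6 stood at 0.41, 0.66 and 0.75. FS replicates 1, 5 and 7 stood at -0.11, -0.51 and -0.76, and the highest control of the 13 at 0.13 (control replicate 1).

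Promoters of 6 of the genes were available from RefSeq (assembly GRCr8), as the 250 bases before each annotated start. No sequence is shown for Gabra2. They are printed 5′ to 3′ on the strand of the gene for 4 genes: Gabra3 and Gabrb2, whose values followed each other most closely over the 16 arrays, Gabra5, which spread most widely among the alpha genes, and Gabrb1, whose window shares a run of letters with that of Gabrb2. Capitals mark the longest run common to the Gabrb1 and Gabrb2 windows (TGCGCATGCGC), the GC box (GGGCGG) or the TATA box (TATAAA), all searched on both strands. The windows are chrX:155543871-155544120 for Gabra3 (minus strand), chr1:117516607-117516856 for Gabra5 (minus strand), chr14:36902894-36903143 for Gabrb1 (minus strand) and chr10:27439543-27439792 for Gabrb2 (plus strand).
Gabra3: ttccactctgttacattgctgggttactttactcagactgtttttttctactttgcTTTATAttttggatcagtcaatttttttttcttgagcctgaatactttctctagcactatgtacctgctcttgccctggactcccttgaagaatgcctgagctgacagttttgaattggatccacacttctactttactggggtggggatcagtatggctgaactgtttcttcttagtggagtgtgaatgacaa
Gabra5: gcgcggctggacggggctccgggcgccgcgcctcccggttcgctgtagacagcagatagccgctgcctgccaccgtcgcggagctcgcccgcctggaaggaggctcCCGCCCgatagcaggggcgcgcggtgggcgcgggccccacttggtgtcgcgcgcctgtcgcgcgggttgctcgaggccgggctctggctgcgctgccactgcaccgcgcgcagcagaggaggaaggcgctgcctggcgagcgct
Gabrb1: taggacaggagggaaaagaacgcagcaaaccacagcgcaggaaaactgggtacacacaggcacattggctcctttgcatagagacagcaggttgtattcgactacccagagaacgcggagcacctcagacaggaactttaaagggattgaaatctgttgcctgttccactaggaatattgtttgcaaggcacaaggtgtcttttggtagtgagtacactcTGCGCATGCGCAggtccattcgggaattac
Gabrb2: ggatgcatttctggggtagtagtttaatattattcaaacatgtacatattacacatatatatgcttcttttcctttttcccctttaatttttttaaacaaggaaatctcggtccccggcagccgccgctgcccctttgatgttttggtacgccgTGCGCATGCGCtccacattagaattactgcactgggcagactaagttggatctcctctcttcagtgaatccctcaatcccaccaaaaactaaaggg

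The run of 11 bases shared by Gabrb1 and Gabrb2 ended 20 bases before the annotated start in Gabrb1, where an overlapping match on the other strand ended at base 19, and 86 bases before it in Gabrb2. Of all 33465 windows of this length, 0.535% held it. It was chosen for being shared, and runs common to 2 of the 6 windows were 6 to 11 bases long over the 15 pairs, Gabra4 and Gabrd also sharing 11. The GC box, present in 30.5% of all windows, was found 4 times in Gabrd (3 of the matches overlap) and once each in Gabra4 and Gabra5. Gabra3 held a TATA box match on the opposite strand, which 12.9% of all windows hold. Neither of 2 motifs of activity-induced factors was found in the 6 windows, namely the cyclic AMP response element TGACGTCA (1.59% of windows) and the Egr motif GCGTGGGCG (0.478%). Base composition fell into 2 kinds, with GC contents of 76.4% (Gabra5), 74% (Gabrd) and 71.6% (Gabra4), against 49.2% (Gabrb1), 43.2% (Gabrb2) and 40.4% (Gabra3), and a median of 51.2% over all windows. These are matches of letters only.

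No difference between FS and control arrays passed the test for any of the 7 subunit genes. With limma and Benjamini-Hochberg adjustment over all 11352 probe sets tested, 0 of the 7 had an adjusted p-value under 0.05, and 0% of all probe sets did (smallest adjusted p-value 0.495). At an unadjusted p under 0.05 the count was again 0 of 7, where 9.32% of all probe sets (1058) passed, 3.65% higher and 5.67% lower in FS. The fitted difference was positive for 1 gene and negative for 6, with a median log fold-change of -0.05. Once each array was centred on its own median, 4 of the 7 were negative, Gabra4 and Gabrb1 having turned positive. Over all probe sets 42.5% were positive, and the median was -0.02. The median size of the difference was 0.05 for the 7 genes and 0.07 for all probe sets.

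Among the alpha subunits of synaptic receptors, Gabra2 (alpha2, enriched at the axon initial segment) had a lowest value of 9.08, a median of 9.34 and a highest value of 9.65 in FS arrays, against 9.12, 9.34 and 9.57 in controls. The medians nearly coincided and the ranges overlapped almost entirely. Its difference was 0.02 ± 0.09 (SE, n = 8 each) with a 95% interval between -0.17 and 0.20 (limma, adjusted p-value 0.947; exact two-sided permutation test, p = 0.841). Gabra3 (alpha3, a synaptic subunit of deep cortical layers) had 9.51, 9.68 and 10.06 in FS arrays and 9.45, 9.83 and 9.96 in controls. FS replicate 4 was the highest of all 16 arrays and control replicate 1 the lowest, so that FS arrays exceeded the control range only at its upper end. The difference was -0.05 ± 0.09 (SE, n = 8 each; 95% interval -0.23 to 0.14; limma, adjusted p-value 0.851; exact p = 0.612).

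Gabra4 encodes alpha4, which is mostly found outside synapses with delta. Its lowest, median and highest values were 8.23, 8.44 and 8.68 in FS arrays and 8.24, 8.54 and 8.70 in controls, a nearly complete overlap. The difference was -0.01 ± 0.08 (SE, n = 8 each; 95% interval -0.18 to 0.16; limma, adjusted p-value 0.965; exact p = 0.889). Gabra5 encodes alpha5, the alpha subunit of tonic currents in pyramidal cells. It had 8.08, 8.36 and 8.66 in FS arrays and 8.04, 8.63 and 8.85 in controls. The lowest array of all was control replicate 6 and the highest control replicate 3, so the control range enclosed the FS range, and 5 of 8 FS arrays lay below the control mean. The difference of -0.15 ± 0.12 (SE, n = 8 each) was the furthest from 0 of the 7, with a 95% interval between -0.41 and 0.11 (limma, adjusted p-value 0.659; exact p = 0.277). As a fold it was 0.902, with an interval of 0.753 to 1.08. A second Gabra5 probe set averaged 3.48, under the filter, with a difference of 0.00440.

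Both beta subunits measured here were also close to the control values. Gabrb1 (beta1) had a lowest value of 7.96, a median of 8.25 and a highest value of 8.50 in FS arrays, against 8.08, 8.27 and 8.38 in controls. FS arrays reached further in both directions (SD 0.18 in FS and 0.11 in controls, n = 8 each), and the difference was -0.0049 ± 0.074 (SE, n = 8 each; 95% interval -0.16 to 0.15; limma, adjusted p-value 0.987; exact p = 0.946). Gabrb2 (beta2, the beta subunit of most synaptic receptors in the adult brain) had 9.04, 9.21 and 9.51 in FS arrays and 8.90, 9.36 and 9.52 in controls. Of the 8 FS arrays, 7 lay below the control mean, yet the lowest array of all was control replicate 1. The difference was -0.09 ± 0.08 (SE, n = 8 each; 95% interval -0.27 to 0.09; limma, adjusted p-value 0.697; exact p = 0.327).

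Gabrd encodes delta, the subunit of tonic receptors most sensitive to neurosteroids. Its lowest, median and highest values were 5.43, 6.00 and 6.07 in FS arrays and 5.57, 5.94 and 6.34 in controls. The FS median lay above the control median while the FS mean lay below the control mean, because FS replicates 3 and 8 stood at 5.43 and 5.45, far under the other 6. The difference was -0.06 ± 0.12 (SE, n = 8 each; 95% interval -0.32 to 0.20; limma, adjusted p-value 0.866; exact p = 0.661), and 0.04 without the 3 arrays that stood apart. Without these arrays Gabra5 differed by -0.13 and Gabrb2 by -0.10 (limma, adjusted p-values 0.808 and 0.836).

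**Figure D1:**
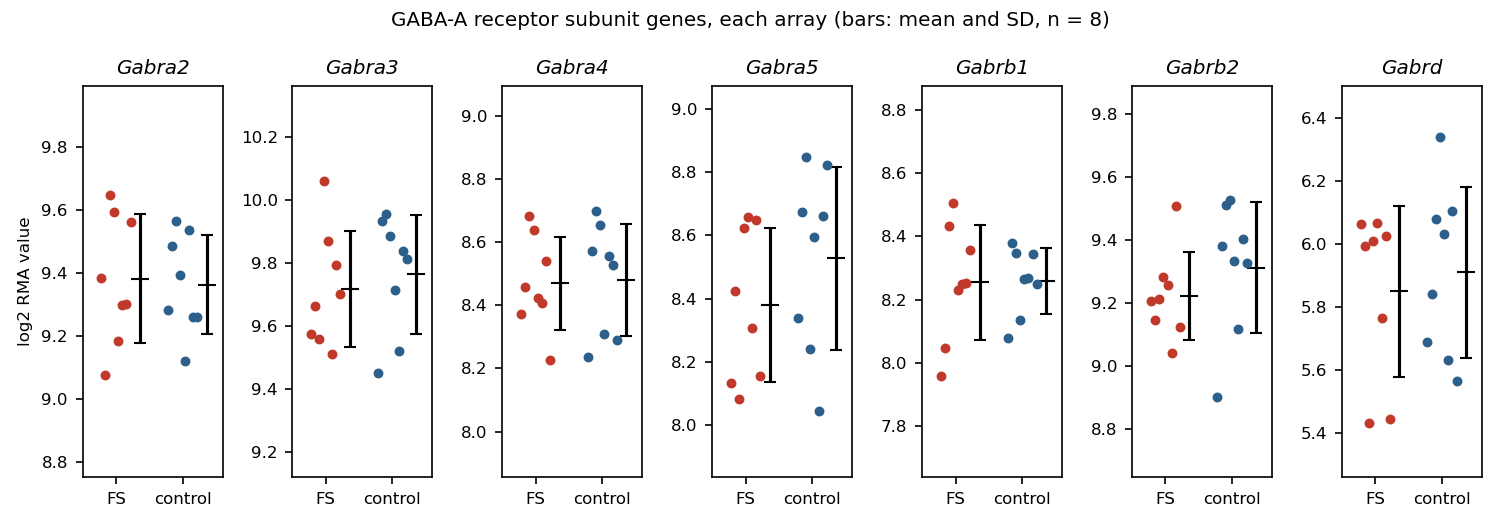
Log2 expression value (y axis, 1 panel for each gene, all panels spanning the same number of log2 units) of the 7 subunit genes in 8 FS arrays (red, left) and 8 control arrays (blue, right); points are arrays and bars the mean and SD (n = 8). The groups overlap in every panel; for Gabrd, FS replicates 3 and 8 lie lowest, at 5.43 and 5.45.

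**Figure D2:**
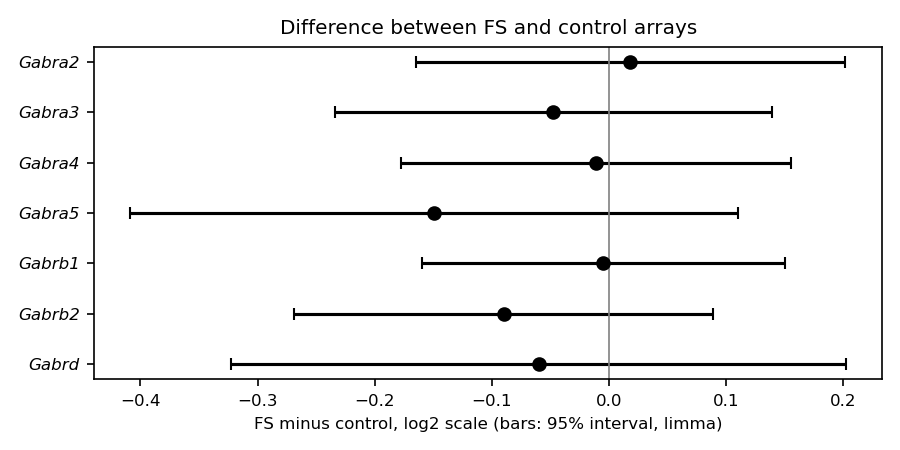
Difference between FS and control arrays (x axis, FS minus control on the log2 scale) for the 7 subunit genes, with 95% intervals from limma (n = 8 each). Every interval spans 0, the point furthest from 0 being Gabra5 at -0.15.

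The genes were also compared with each other, to ask whether any subunit shifted relative to another. For each of the 21 pairs the log2 value of one gene minus that of the other was taken on each array. None of the 21 passed the threshold (exact two-sided permutation test, 0 at an unadjusted p under 0.05, smallest Benjamini-Hochberg adjusted p = 0.869). The change of the alpha2 gene relative to the alpha5 gene was 0.17 (exact p = 0.370), and that of the beta2 gene relative to the delta gene was -0.03 (exact p = 0.787).

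The spread over arrays is described here and was not tested between genes. Over the 16 arrays of both groups Gabrd spanned 1.87-fold and Gabra5 1.75-fold, while the other 5 genes spanned between 1.38-fold (Gabra4) and 1.54-fold (Gabrb2). The lowest array was FS replicate 3 for Gabrd and control replicate 6 for Gabra5, both among the 3 that stood apart. Within groups, the residual SDs of Gabra5 and Gabrd (0.27 for both) stood above those of 88.3% and 88.7% of all probe sets, beside a median of 0.15. Most pairs of subunit genes varied in the same direction. After the group means were removed, 18 of the 21 correlations between genes over the 16 arrays were positive, with a median Pearson's r of 0.43. Without the 3 arrays that stood apart, 19 of 21 were positive, with a median of 0.51. All points of such a correlation share the same arrays and their common normalisation, so r is given as a description. The share of positive r over all pairs of genes was not computed, so these counts are not read as a trait of the subunits.

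Over the 16 arrays Gabra3 and Gabrb2 followed each other most closely (r = 0.76), with r of 0.53 in FS arrays, 0.94 in controls and 0.76 in the 13 arrays, where Gabra3 and Gabra4 were as close (0.77, against 0.45 over all 16). Gabra3 and Gabra5 came next at 0.71 (0.63 in the 13), followed by Gabrb2 with Gabrd at 0.58 (0.63 in the 13). The lowest r, between Gabra2 and Gabrd, was -0.36, with -0.62 in FS arrays, -0.02 in controls and 0.14 in the 13. For Gabra2 and Gabra5 it was -0.30, with -0.44 in FS arrays, -0.17 in controls and 0.12 in the 13, so both negative values rest on the 3 arrays. Gabra4 and Gabrd, whose proteins assemble in one receptor type, had r = 0.35 over all arrays and 0.63 in the 13. In the rat genome Gabrb1, Gabra4 and Gabra2 lie in one cluster on chromosome 14, with Gabrg1 beyond Gabra2, no other protein-coding gene between Gabrb1 and Gabra4, and 1 between Gabra4 and Gabra2. Their pairwise r were 0.58 (Gabra2 and Gabrb1), 0.50 (Gabra2 and Gabra4) and 0.43 (Gabra4 and Gabrb1), and in the 13 arrays 0.48, 0.66 and 0.51 in the same order. Many other genes were closer over the 16 arrays. By likeness to Gabra2, Gabrb1 stood at rank 974 and Gabra4 at rank 1450 of 10422 genes. By likeness to Gabra4, Gabrb1 stood at rank 1927. Gabra5 lies on chromosome 1 next to Gabrg3, Gabrb2 on chromosome 10 next to Gabra6, Gabra3 on the X chromosome between Gabre and Gabrq with 1 further gene on each side, and Gabrd on chromosome 5.

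**Figure D3:**
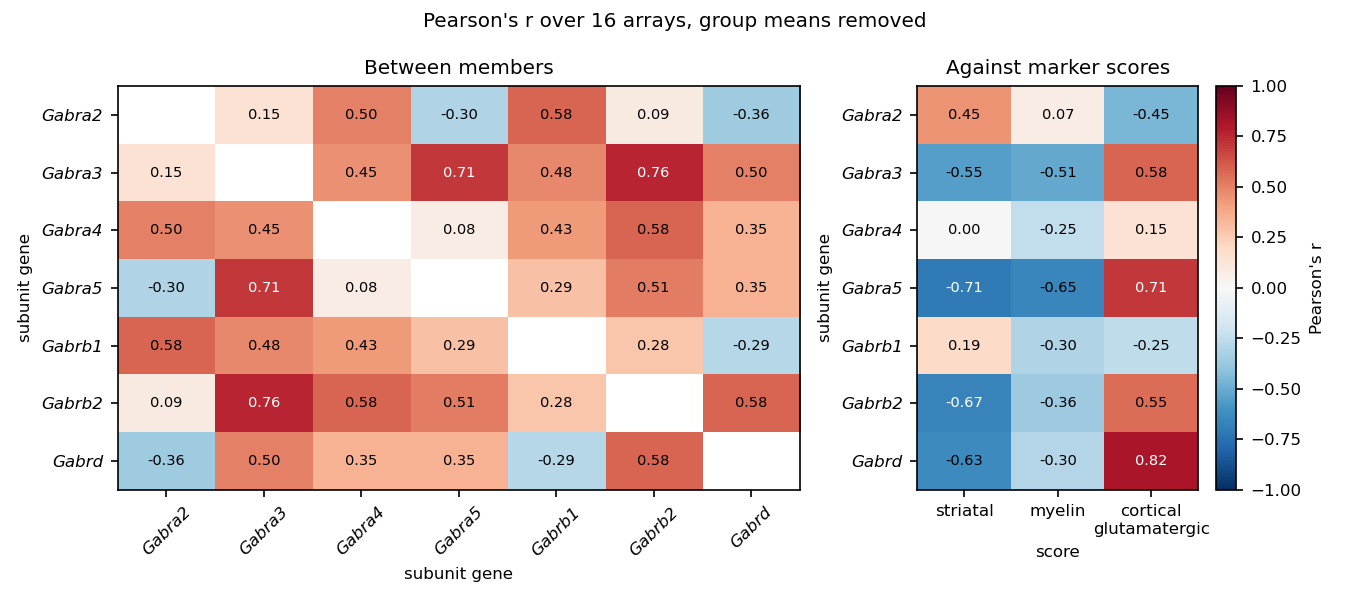
Pearson's r over the 16 arrays after removal of the group means, between the 7 subunit genes (left) and of each gene against 3 tissue marker scores (right); colour and printed number both give r. Gabra3 and Gabrb2 reach 0.76, and Gabra2 and Gabrd -0.36, which is 0.14 in the 13 arrays.

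The genes were set against 3 tissue scores, since a dissected PFC can hold differing amounts of neighbouring tissue. A score is the mean over the marker genes of the log2 value minus the mean of each gene over the 16 arrays. The striatal score (21 genes of medium spiny neurons, among them Drd1 and Drd2) was 0.31 ± 0.69 in FS arrays and -0.31 ± 0.75 in controls (SD, n = 8 each; exact two-sided permutation p = 0.109), with 20 of the 21 genes higher in FS by their means. The myelin score (18 genes) was 0.18 ± 0.12 in FS arrays and -0.18 ± 0.32 in controls (SD, n = 8 each; exact p = 0.00528), with all 18 genes higher by their means. The cortical glutamatergic score was -0.13 ± 0.46 in FS arrays and 0.13 ± 0.37 in controls (SD, n = 8 each; exact p = 0.230), with 10 of 11 genes lower by their means. These p-values are not adjusted, although further lists were scored. The lists were chosen with earlier results of these arrays known. The p-values thus describe these arrays and are no independent support for a difference in a score.

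Of the 21 relations between 7 genes and 3 scores, 8 passed an adjusted p of 0.05 by Pearson's r and 7 by Spearman's rho (permutation tests, 100000 resamples, Benjamini-Hochberg over the 21). All 8 belonged to Gabra5, Gabrb2, Gabrd and Gabra3. Only 2 of the 21 passed in the 13 arrays left without the 3 that stood apart, both of Gabrb2. The share of all genes passing such a test was not computed, so the count is not read as a trait of these subunits. On the arrays that stood apart the striatal score was high and the glutamatergic score low. They were 1.41 and -0.73 in control replicate 6, and 1.14 and -0.77 in FS replicate 3. Relations with these 2 scores are thus not separate results.

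Gabra5 was lower on arrays with a higher striatal score (r = -0.74, permutation adjusted p = 0.0141; rho = -0.80, adjusted p = 0.00175; n = 16). Within the groups r was -0.62 in FS arrays and -0.78 in controls, and without the 2 arrays furthest from the median score it was -0.59. In the 13 arrays r was -0.48 (permutation adjusted p = 0.278), and the call was lost. These arrays are fewer and span less of the striatal and glutamatergic scores. With 1 array left out at a time, the call was kept in all 16 cases (r between -0.83 and -0.67). Gabra5 was likewise higher with the cortical glutamatergic score (r = 0.73, permutation adjusted p = 0.00819; rho = 0.66), with r of 0.73 in FS arrays and 0.71 in controls. This fell to 0.64 without the 2 furthest arrays and to 0.44 in the 13 (permutation adjusted p = 0.304). With 1 array left out the glutamatergic call was kept in all 16 cases (r between 0.67 and 0.82). Against the myelin score Gabra5 had r = -0.66 (permutation adjusted p = 0.0162; rho = -0.80), with -0.75 in FS arrays and -0.68 in controls, -0.69 without the 2 furthest arrays and -0.57 in the 13 (permutation adjusted p = 0.192). The myelin call was kept in 15 of 16 cases with 1 array left out, being lost without control replicate 3 (permutation adjusted p = 0.0568).

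For Gabrb2 the r with the striatal and glutamatergic scores were further from 0 in the 13 arrays than in all 16. The r with the myelin score, which passed in neither, was -0.43 over all 16 and -0.36 in the 13. Against the striatal score r was -0.70 over all 16 (permutation adjusted p = 0.0155; rho = -0.78), -0.69 in FS arrays, -0.68 in controls, -0.74 without the 2 furthest arrays and -0.74 in the 13 (permutation adjusted p = 0.0484). With the cortical glutamatergic score r was 0.59 (permutation adjusted p = 0.0446; rho = 0.85), 0.50 in FS arrays, 0.65 in controls, 0.66 without the 2 furthest arrays and 0.83 in the 13 (permutation adjusted p = 0.0116). Leaving out 1 array at a time, the striatal call was kept in all 16 cases. The glutamatergic call was kept in 4 of 16 (without FS replicates 1, 3 or 4 or control replicate 1), with r between 0.55 and 0.71. With group means removed over all 16 arrays the glutamatergic call was lost (r = 0.55, permutation adjusted p = 0.0699).

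Gabrd followed the cortical glutamatergic score (r = 0.81, permutation adjusted p = 0.00399; rho = 0.83). It was 0.99 in FS arrays and 0.61 in controls, 0.63 without the 2 furthest arrays and 0.56 in the 13 (permutation adjusted p = 0.192). With 1 array left out this call was kept in all 16 cases (r between 0.75 and 0.89). The 3 arrays with the lowest glutamatergic score held Gabrd values of 5.43 and 5.45 (FS replicates 3 and 8) and 5.63 (control replicate 6), although control replicate 8, at 5.57, was as low with a score of 0.16. Against the striatal score Gabrd had r = -0.62 (permutation adjusted p = 0.0420; rho = -0.55, adjusted p = 0.0684), -0.76 in FS arrays, -0.51 in controls, -0.46 without the 2 furthest arrays and -0.25 in the 13 (permutation adjusted p = 0.588). Gabra3 followed the glutamatergic score (r = 0.59, permutation adjusted p = 0.0446; rho = 0.72), with 0.44 in FS arrays, 0.76 in controls, 0.66 without the 2 furthest arrays and 0.68 in the 13 (permutation adjusted p = 0.0685). With group means removed over all 16 arrays this call was lost (r = 0.58, permutation adjusted p = 0.0679). With 1 array left out, the striatal call of Gabrd was kept in 6 of 16 cases (without FS replicates 1, 2 or 4 or control replicates 1, 2 or 8; r between -0.76 and -0.54) and the glutamatergic call of Gabra3 in 4 (without FS replicates 1, 4 or 8 or control replicate 1; r between 0.52 and 0.66).

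No relation passed the threshold for Gabra2, Gabra4 or Gabrb1, the 3 genes of the cluster on chromosome 14. Their r with the striatal score were 0.43, -0.01 and 0.17, and with the cortical glutamatergic score -0.45, 0.15 and -0.24. In the 13 arrays r with the striatal score was 0.0017, -0.17 and -0.11, and with the cortical glutamatergic score 0.33, 0.53 and 0.22. The sign with the glutamatergic score was then the same for all 7 genes. The share of all genes with that sign was not computed, and the 3 arrays were left out after seeing the data. This count is thus not read as a trait of the subunits. Whether the relations differ between genes was not tested.

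**Figure D4:**
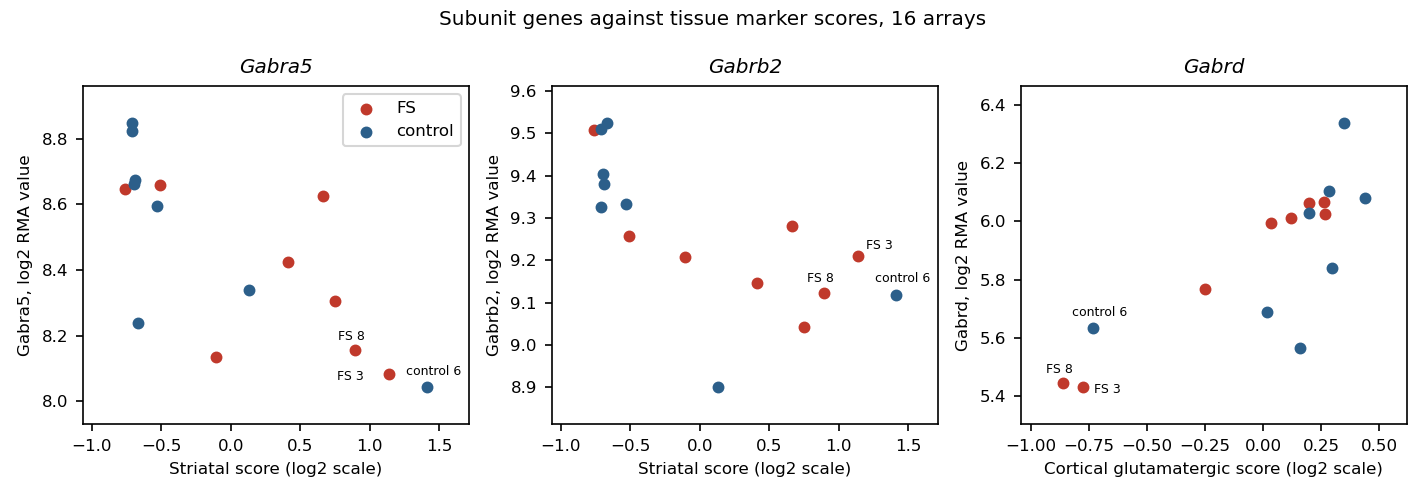
Log2 expression value (y axis) of Gabra5 and Gabrb2 against the striatal score and of Gabrd against the cortical glutamatergic score (x axes, log2 scale), 1 point for each of 8 FS arrays (red) and 8 control arrays (blue), with the 3 arrays that stood apart named. Gabra5 (r = -0.74) and Gabrb2 (r = -0.70) decline with the striatal score, and Gabrd rises with the glutamatergic score (r = 0.81).

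With a score as covariate in limma, the small differences between the groups turned in sign for 5 of the 7 genes (striatal score) or for all 7 (myelin score). The share of all probe sets turning in sign was not computed, so these counts are not read as a trait of the subunits. At equal striatal score the log fold-change was 0.01 for both Gabra5 and Gabrb2, 0.09 for Gabrd and 0.04 for Gabra3, against -0.15, -0.09, -0.06 and -0.05 without it, and Gabra2 had -0.05 against 0.02. At equal myelin score it was 0.11 for Gabra5, 0.10 for Gabra3, 0.06 for both Gabrb1 and Gabrd, 0.05 for Gabra4, 0.0066 for Gabrb2 and -0.0019 for Gabra2. None of the 7 genes passed the adjusted threshold in either fit (limma, smallest adjusted p-values 0.9994 and 0.9995). The myelin score itself was on average higher in FS arrays, and its part in the differences was not tested beyond these fits.

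The genes whose values were most like those of each subunit gene over the 16 arrays, group means removed, were searched among the 10423 genes tested. Gabra5 was closest to Sema5a (r = 0.97), a guidance cue, to Tnr (0.95), the extracellular matrix protein tenascin-R, and to Grm8 (0.95), a presynaptic metabotropic glutamate receptor. Gabrb2 was closest to Usp33 (0.94), Mdh1 (0.93), the cytosolic malate dehydrogenase, and Senp5 (0.91), and Gabrd to Pgm2 (0.94), Ccdc184 (0.93) and Brk1 (0.92). Gabra3 was closest to Dynlt3 (0.94), a dynein light chain, Wdr7 (0.93) and Sanbr (0.92).

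Gabra4 was closest to Ppp3ca (0.94), the catalytic subunit of calcineurin, followed by Armcx3 (0.89) and Crbn (0.87). Gabra2 was closest to Hspd1 (0.90), a mitochondrial chaperonin, Zfp74 (0.89) and RragB (0.89), and Gabrb1 to Arl6ip1 (0.90), Ssr1 (0.89) and Matr3 (0.88). No subunit gene was among the 3 genes most like another. In the 13 arrays the r of these 21 pairs lay between 0.85 and 0.96. Each pair was chosen for its high r among 10422 other genes, over arrays that include these 13. High values are thus partly built in by that choice, and the range is no separate check of the likeness. The subunit gene nearest to another was Gabrb2, at rank 304 of 10422 by likeness to Gabra3.

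Other subunit genes were looked up as 12 entries, of which 9 were named and 3 passed the filter, while 3 were not analysed here. Gabrg1, the gamma1 gene, had 7.27, 7.65 and 8.10 (lowest, median and highest) in FS arrays and 7.24, 7.39 and 7.76 in controls, a difference of 0.21 ± 0.12 (SE, n = 8 each; limma, adjusted p-value 0.566). Gabrg3 (gamma3) differed by 0.14 ± 0.13 and Gabrr2 (rho2, of the mainly retinal rho receptors) by -0.39 ± 0.21 (SE, n = 8 each; limma, adjusted p-values 0.697 and 0.551). None of the 3 passed even the unadjusted threshold. Gabra6, Gabre, Gabrp, Gabrq, Gabrr1 and Gabrr3, known mainly from cerebellum, retina or restricted nuclei and peripheral tissue, averaged between 2.65 and 3.40 and were not tested.

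Genes that anchor or move the receptors had differences of both signs. Of 26 entries 24 were tested, 10 with positive and 14 with negative differences and a median of -0.01, and none passed the adjusted threshold (limma, smallest adjusted p-value 0.509). At an unadjusted p under 0.05 there were 2 higher and 2 lower in FS, beside the 3.65% and 5.67% of all probe sets. The 2 higher were Rdx, radixin, which ties alpha5 receptors to actin (0.15 ± 0.05), and Kif5b, a kinesin heavy chain (0.17 ± 0.07). The 2 lower were Ap2m1, the adaptor that carries receptors into clathrin-coated pits (-0.15 ± 0.06), and Zdhhc3, a palmitoyltransferase that acts on the receptor (-0.10 ± 0.05; SE, n = 8 each in all 4). All 8 FS arrays lay below the control mean for Ap2m1, with 10.30, 10.42 and 10.56 (lowest, median and highest) in FS arrays and 10.40, 10.60 and 10.71 in controls. Gphn, encoding the synaptic scaffold gephyrin, differed by 0.11 ± 0.06 and Nlgn2, its adhesion partner neuroligin-2, by -0.008 ± 0.079 (SE, n = 8 each), the sign of the second turning with arrays centred on their medians. At equal myelin score Rdx differed by 0.14, Kif5b by 0.03, Ap2m1 by -0.06 and Zdhhc3 by -0.08, and at equal striatal score by 0.14, 0.09, -0.08 and -0.07, where Gphn differed by 0.04. Of the 4, only Rdx at equal striatal score kept an unadjusted p under 0.05 (limma, 0.0300), and without the 3 arrays that stood apart only Ap2m1 did (limma, 0.0340).

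Chloride balance sets the direction of the current through GABA-A receptors. Slc12a2 encodes NKCC1, which loads cells with chloride, and Slc12a5 encodes KCC2, the neuronal exporter. Slc12a2 had a lowest value of 7.29, a median of 7.57 and a highest value of 7.66 in FS arrays, against 7.02, 7.23 and 7.49 in controls. All 8 FS arrays lay above the control mean, although the ranges overlapped, and the difference was 0.30 ± 0.08 (SE, n = 8 each; limma, unadjusted p = 0.00110, adjusted p-value 0.495). Slc12a5 had 8.43, 8.72 and 8.93 in FS arrays and 8.74, 8.85 and 9.16 in controls. Here 7 of 8 FS arrays lay below the control mean, and the difference was -0.18 ± 0.07 (SE, n = 8 each; limma, unadjusted p = 0.0274, adjusted p-value 0.518). Neither gene passed the adjusted threshold.

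In all, 13 of 18 entries of the chloride and neurosteroid list were tested, all of them genes of chloride and bicarbonate balance or its control, and none of neurosteroid synthesis. There were 6 positive and 7 negative differences, with a median of -0.04. At an unadjusted p under 0.05 there were 3 higher and 2 lower, beside 3.65% and 5.67% of all probe sets, and none passed after adjustment. Besides Slc12a2 and Slc12a5 these were Wnk1, a kinase that regulates both transporters (0.20 ± 0.06), Car2, a carbonic anhydrase also abundant in oligodendrocytes (0.30 ± 0.11), and Clcn2, a chloride channel (-0.16 ± 0.06; SE, n = 8 each). At equal myelin score in limma, the differences were 0.10 for Slc12a2, 0.06 for Wnk1, -0.03 for Car2, -0.14 for Slc12a5 and -0.17 for Clcn2, and of the 5 only Clcn2 kept an unadjusted p under 0.05 (0.0392). At equal striatal score Slc12a2 differed by 0.24 and Wnk1 by 0.14 (limma, unadjusted p = 0.00656 and 0.0362), while Car2 (0.20), Clcn2 (-0.10) and Slc12a5 (-0.09) no longer had an unadjusted p under 0.05 (0.0810, 0.0645 and 0.175). Without the 3 arrays that stood apart the differences were 0.30 for Slc12a2, 0.19 for Wnk1, 0.33 for Car2, -0.16 for Clcn2 and -0.14 for Slc12a5, the last with an unadjusted p of 0.0801 (limma).

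**Figure D5:**
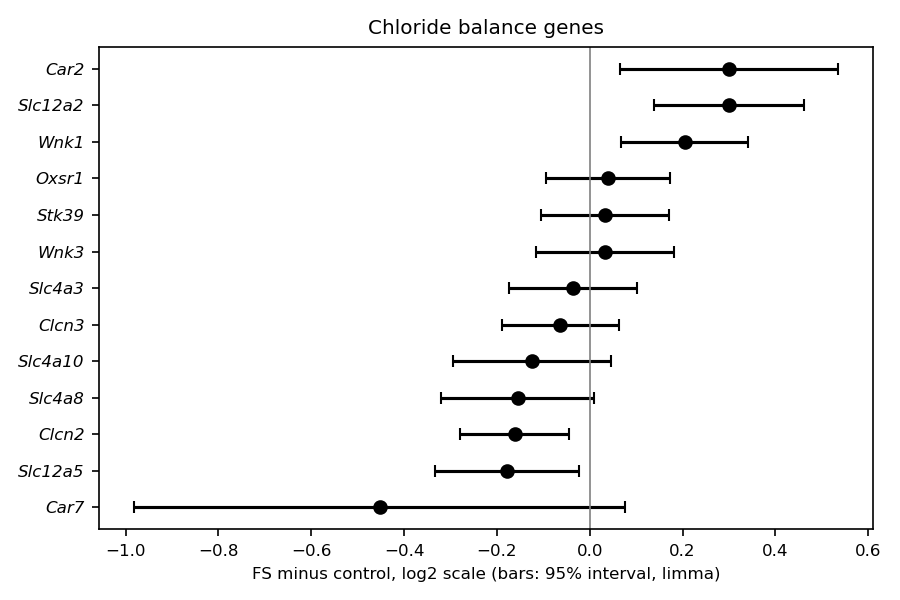
Difference between FS and control arrays (x axis, FS minus control on the log2 scale) for the 13 tested genes of chloride and bicarbonate balance, with 95% intervals from limma (n = 8 each). Slc12a2 (0.30), Car2 (0.30) and Wnk1 (0.20) have intervals above 0 and Slc12a5 (-0.18) and Clcn2 (-0.16) below it, all before adjustment.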

How the data were processed

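Total RNA of the PFC of 8 FS and 8 control rats was hybridised to Affymetrix Rat Gene 1.0 ST arrays. The deposited log2 values were made by the authors by RMA in oligo (version 1.58.0), which corrects the background, brings the arrays to 1 common distribution and summarises each probe set. A shift shared by most genes of an array is therefore removed. The number of arrays limits the precision, and the median SE of a difference was 0.07. The genome build is not given in the sources used here.

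Of 29214 probe sets, 18644 had 1 gene symbol in the platform annotation, 962 had several and 9608 were unnamed here. Of those with 1 symbol, 18460 were found in the RefSeq gene table (GRCr8), all 7 subunit genes included. Probe sets with 1 symbol and a mean above 4 were tested (11352, of 10423 genes) with limma (version 3.58.1, R 4.3.3), with group as the only term; the methods of the study name limma, eBayes and the adjustment but no model terms. Exact permutation tests ran over all 12870 assignments of 16 arrays to groups of 8 (smallest p 0.000155) and correlations used 100000 resamples (scipy 1.17.1). The fit was tested on simulated data. P-values set a difference or a correlation against the variation between these arrays. They treat the arrays as independent, and a cage shared by rats could not be accounted for.

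Members, gene lists and tests were chosen with earlier results of these data known. Genes named were the 7 members, the 3 genes most like each, the tested other subunits, and, from the lists of the anchoring and chloride genes, those at an unadjusted p under 0.05 or of best known role. Alternatives were other filters, 1 probe set per gene, a trended and robust variance model, array weights, arrays centred on their medians, tissue scores as covariates, a replicate block and arrays left out. Promoters came from a RefSeq table of GRCr8.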

Additional observations from a re-analysis of the deposited data

How the results depend on the processing

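No subunit gene passed the adjusted threshold under any of the 28 alternatives, and none passed an unadjusted p under 0.05. No pair of genes passed the threshold when 1, 2 or 3 arrays were left out. Calls over all probe sets stayed at 0 except for 1 (Apold1, adjusted p 0.0130) without FS replicate 2 and 1 (Hhip, 0.0300) without control replicate 6 and FS replicate 3, both by limma and named after their values were seen; leaving out 1 array thus gave 0 to 1. Probe sets at an unadjusted p under 0.05, 1058 in all, were 471 once the striatal score was a covariate and 308 for the myelin score, and between 648 (without FS replicate 3) and 1870 (without control replicate 6) when 1 array was left out. Replicate numbers are shared by the groups, and the labels do not say what a shared number means. Same-numbered arrays had correlations between -0.31 and 0.49, with 4 of 8 above 0.1. Replicates 6 and 7 (0.47 and 0.49) were the 2 that matched best with their own number. These correlations cannot exclude a pairing. With a replicate block there were 0 calls, and 1242 probe sets at an unadjusted p under 0.05. Of 197 values of the 7 differences, 33 had the other sign, none of them called. With centred arrays Gabra4 was 0.00644 and Gabrb1 0.0128, and the second Gabra5 probe set gave 0.00440. With the striatal covariate Gabra5 was 0.0125, Gabrb2 0.0117, Gabra2 -0.0524, Gabrd 0.0868 and Gabra3 0.0407. With the myelin covariate Gabra5 was 0.114, Gabrb2 0.00662, Gabra4 0.0496, Gabra2 -0.00186, Gabrb1 0.0640, Gabrd 0.0612 and Gabra3 0.0967. Without 3 arrays (control replicate 6, FS replicates 3 and 8; chosen after seeing the data, as was the omission of 2) Gabra4 was 0.00443, Gabra2 -0.0317 and Gabrd 0.0377. With 1 to 3 arrays left out the differences ran between -0.0317 and 0.0615 for Gabra2, -0.0463 and 0.0231 for Gabra4, -0.0502 and 0.0374 for Gabrb1, and -0.109 and 0.0377 for Gabrd. The count of relations with tissue scores, 8 over all arrays, was 6 with group means removed, 4 (without control replicate 3) to 10 (without FS replicate 4) with 1 array left out, and 2 without either 2 or 3 arrays; besides the values given above, r changed sign for Gabra4 with the striatal score (0.0029 with group means removed, -0.34 to 0.13 with 1 to 3 arrays left out) and the glutamatergic score (-0.10 to 0.61), for Gabra2 with the myelin score (-0.10 without 2 and -0.22 without 3 arrays, -0.03 to 0.26 with 1 left out) and the glutamatergic score (0.33 without 3, -0.57 to 0.33 in all), and for Gabrb1 with the striatal (-0.11 to 0.24) and glutamatergic (-0.31 to 0.22) scores. Of the 14 other genes named from the pathway lists none was called under any alternative; signs turned for Gabrg3 (-0.0440, striatal covariate), Gabrr2 (0.0326) and Car2 (-0.0314, both myelin covariate), and for Nlgn2 (0.00947 with array weights, 0.00940 centred, 0.0702 and 0.0153 with the striatal and myelin covariates, 0.0365 and 0.0314 without 2 and 3 arrays, -0.0518 to 0.0435 with 1 left out). The cause was not tested.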
